A study of Mus musculus with 12 samples.

Results

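Adenoma cells that were negative for Mex3a were compared by their Lgr5 status: 3 pools positive for Lgr5 (Lgr5+) against 3 pools negative for Lgr5 (Lgr5-), 1 of each from each of 3 mice. These 6 arrays were chosen by their titles and paired by the mouse number there (MKL347, MKL358 and MKL367), and the series holds 12 arrays in all. The other 6 arrays held Mex3a+ cells of the same 3 mice, again with and without Lgr5. Every pool of all 4 populations came from mice labelled ki/+, with no word on which gene that stands for, and each mouse's cells came from a mixture of several colon adenomas. Pools of mouse MKL358 had 500 cells and those of the other mice 2000 cells. How Mex3a and Lgr5 status were read on the cells, and the age and strain of the mice, were not stated in the labels. The RNA was amplified as whole transcriptome cDNA before labelling, and expression was read as log2 signal on an Affymetrix mouse array, so 1 unit is a doubling.

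Lgr5 is a receptor for R-spondins, secreted proteins that strengthen Wnt signalling, and it marks stem cells deep in the intestinal crypt. In normal crypts the daughters of these cells lose Lgr5 as they move up and mature into absorptive colonocytes, which take up salt and water, or into secretory cells such as goblet cells, which make mucus. Intestinal adenomas are driven by Wnt signalling and still hold both Lgr5+ and Lgr5- cells. Mex3a is an RNA-binding protein known to mark a subset of Lgr5+ intestinal stem cells. The comparison asks what sets Lgr5+ adenoma cells apart when Mex3a is absent by the gate.

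The Lgr5 transcript followed the labels. It measured 8.06, 8.05 and 7.95 on the Lgr5+ arrays of mice MKL347, MKL358 and MKL367 and 5.78, 5.76 and 6.49 on their Lgr5- arrays, so the groups were far apart, and the Lgr5- array of MKL367 was the highest of its group (log2 difference 2.01, SE 0.15, limma adjusted p = 6.55e-05, 4.02-fold). Another probe set of Lgr5 gave a log2 difference of 1.38. Since Lgr5 status defined the pools, this checks the labels and is no finding. Mex3a measured 6.28, 6.57 and 6.47 on the Lgr5+ arrays and 5.93, 5.94 and 6.49 on the Lgr5- arrays, and its groups overlapped (log2 difference 0.32, SE 0.14, limma adjusted p = 0.297, so it did not pass the test). The same probe set lay between 6.78 and 7.31 on the 6 Mex3a+ arrays, above all 6 Mex3a- arrays. The epithelial markers Epcam, Krt8 and Cdh1 were at mean log2 signals of 11.69, 11.42 and 9.33 in Lgr5+ pools and 11.69, 11.51 and 9.42 in Lgr5- pools, with SDs between 0.044 and 0.26 (n = 3). A further epithelial marker, Vil1, was lower in Lgr5+ cells in every mouse and did not pass (log2 difference -0.27). It measured 9.86, 9.64 and 9.60 on the Lgr5+ arrays and 10.13, 9.84 and 9.93 on the Lgr5- arrays. Over a list of 22 epithelial genes the mean level was also lower in the Lgr5+ pool of each mouse (-0.17, -0.05 and -0.11). Of the defining markers of other cell types, Ptprc (leukocytes), Cd3e (T cells), Pdgfra and Col1a2 (fibroblasts) stayed below 4.40, the level used as the filter on low values. Others did not: the fibroblast genes Col1a1, Col3a1, Dcn and Sparc reached 8.70, 9.34, 7.25 and 9.37 on the Lgr5+ array of MKL367, the neutrophil genes S100a8 and S100a9 reached 8.29 and 9.59 on the Lgr5- array of MKL358, and Cd68 (macrophages) and Cd79a (B cells) lay between 5.22 and 5.77 on the 6 arrays.

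Of 12595 genes tested, 102 rose in Lgr5+ cells (0.81%) and 102 fell (0.81%), together 204 (1.62%). A gene was called, here and below, at a Benjamini-Hochberg adjusted p under 0.05 from limma over all 12595 genes, with the mouse as a block. All 204 had the same sign in each of the 3 mice. A call from this fit within mice favours such genes, so the agreement is no separate support. Most of the changes were modest: the median size over called genes was 0.61 on the log2 scale, and 10 rises and 11 falls reached 2-fold. The 3 Lgr5+ and the 3 Lgr5- arrays did not overlap for 154 of the 204 called genes, and this also held for 1367 (10.9%) of all genes tested. The median difference over all genes was -0.0052.

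The replicates are separate mice, and the pairing by mouse carries these calls. Without the mouse as a block, 4 genes were called, namely Vwa2, Lgr5, Rnf157 and Fhl1, and the median standard error was 0.127 in place of 0.102. Of these, Fhl1 passed the filter on low values only through the 3 Mex3a- Lgr5- arrays, where it was high. Arrays also mattered one by one. The count was 37 without the Lgr5+ array of MKL358, the mouse with the small pools, and 72 without the Lgr5+ array of MKL367. It was 107 without the Lgr5+ and 82 without the Lgr5- array of MKL347, and 72, 43 and 67 without mouse MKL347, MKL358 or MKL367. Leaving out a mouse or the mouse block could not reverse a sign, since all 204 agreed in the 3 mice. The sign of all 204 differences stayed the same in each of these fits. The even split did not, with 48 higher and 19 lower without mouse MKL367 and 157 higher and 83 lower without its Lgr5- array. Without each of the 6 Mex3a+ arrays, tried after the data were seen, 144 to 216 genes were called. Below, an array left out is 1 of the 6 Mex3a- arrays.

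**Figure D1:**
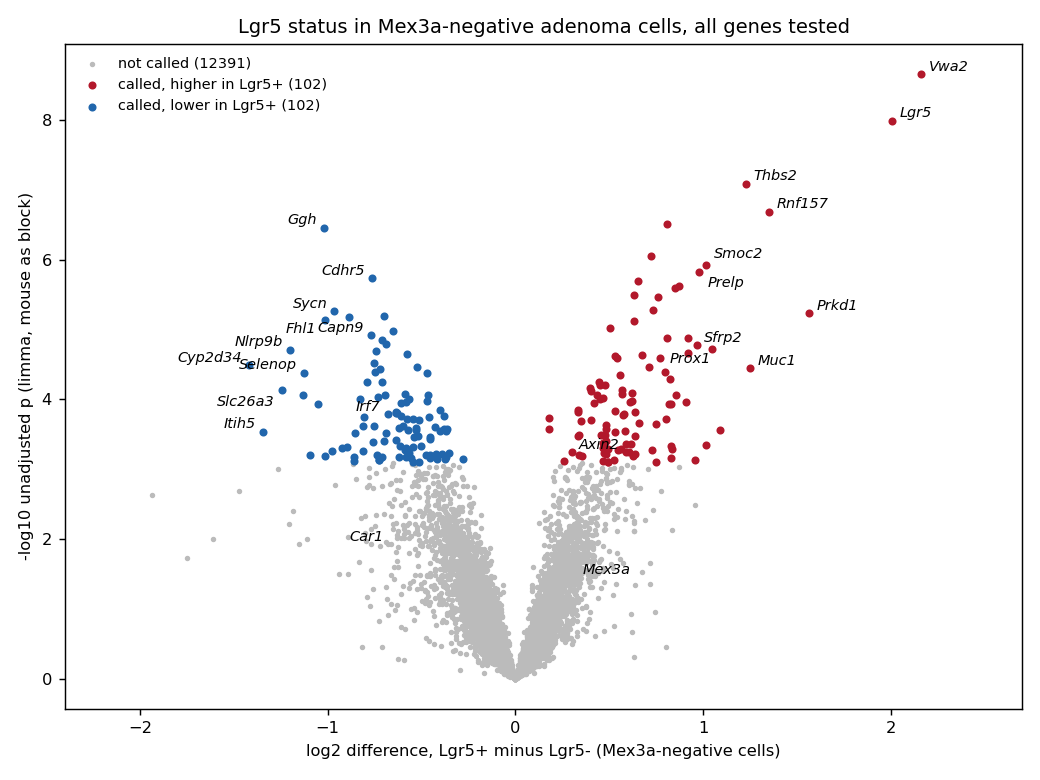
Log2 difference between Lgr5+ and Lgr5- pools of Mex3a-negative cells (x axis) against -log10 of limma's unadjusted p (y axis) for 12595 genes, each a point, with the 102 called rises in red and the 102 called falls in blue. Vwa2 and Lgr5 lie far from the rest at log2 differences of 2.16 and 2.01, while Mex3a lies among the genes not called.

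The largest rise belonged to Vwa2, which encodes a secreted matrix protein with von Willebrand factor A domains. It measured 8.38, 8.57 and 8.34 on the Lgr5+ arrays of mice MKL347, MKL358 and MKL367 and 6.003, 6.24 and 6.55 on their Lgr5- arrays. Each Lgr5+ array lay above the Lgr5- array of the same mouse by 1.79 to 2.37 log2 units (log2 difference 2.16, SE 0.14, limma adjusted p = 2.79e-05, 4.48-fold). Its call held without any one array or mouse, with a highest limma adjusted p of 0.0112.

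Prkd1, a kinase of the protein kinase D family, measured 6.91, 7.61 and 6.88 on the Lgr5+ arrays and 4.98, 5.81 and 5.92 on the Lgr5- arrays. Its groups did not overlap, and its Lgr5- array of MKL347 was the lowest (log2 difference 1.57, SE 0.21, limma adjusted p = 0.00413). Its call ended without mouse MKL358 (limma adjusted p = 0.0883). Rnf157, a ubiquitin ligase, measured 7.33, 7.37 and 6.98 on the Lgr5+ arrays and 5.53, 6.13 and 5.97 on the Lgr5- arrays, again with no overlap (log2 difference 1.35, SE 0.13, limma adjusted p = 0.000649). Of the 3 other probe sets of Rnf157, 2 were called higher (0.83 and 0.76) and 1 had a difference of 0.10 that did not pass.

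Muc1, a mucin of the cell membrane, measured 7.89, 8.71 and 7.96 on the Lgr5+ arrays and 6.60, 6.94 and 7.27 on the Lgr5- arrays. The Lgr5+ array of MKL358 was its highest (log2 difference 1.25, SE 0.20, limma adjusted p = 0.0104), and without that array the call ended (limma adjusted p = 0.0747), as it did without mouse MKL347 or MKL358 (up to 0.0916). Thbs2, a thrombospondin that binds matrix, measured 8.21, 8.38 and 7.91 on the Lgr5+ arrays and 6.72, 7.34 and 6.75 on the Lgr5- arrays, with no overlap (log2 difference 1.23, SE 0.11, limma adjusted p = 0.000348). Its call held without any one array or mouse, and a further probe set gave 1.10.

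The other genes among the 15 largest rises were Smoc2 and Sfrp2, described below, Prelp (a proteoglycan of connective tissue, 0.98, SE 0.11), Fxyd6 (a regulator of the sodium pump, 1.05, SE 0.15), Dnajc6 (auxilin, which strips clathrin from vesicles, 1.02, SE 0.21), Cald1 (the actin-binding caldesmon, 0.96, SE 0.21), Kif12 (a kinesin motor, 0.92, SE 0.13), Scara3 (a scavenger receptor, 0.92, SE 0.14) and Sectm1a (a secreted and membrane protein, 1.09, SE 0.22). Scara3 was dim, at mean log2 signals of 4.37 and 3.46, both under the filter's level. It exceeded that level only on Lgr5+ arrays, those of Mex3a+ cells and the Mex3a- array of MKL358. So it entered the test only through the pools where it was high. Among the 15, the Lgr5+ array of MKL358 ended 6 calls when it was left out (Cald1, Dnajc6, Muc1, Scara3, Sectm1a and Sfrp2, limma adjusted p between 0.0592 and 0.235). Each other array except the Lgr5- array of MKL367 ended 2 or 3, all of them from Cald1, Dnajc6 and Sectm1a. Without mouse MKL358, 9 of the 15 ended, Prkd1, Fxyd6 and Kif12 among them (up to 0.23), and without MKL347 or MKL367 3 each. Vwa2, Lgr5, Rnf157, Thbs2, Smoc2 and Prelp kept their calls without any one array or mouse.

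**Figure D2:**
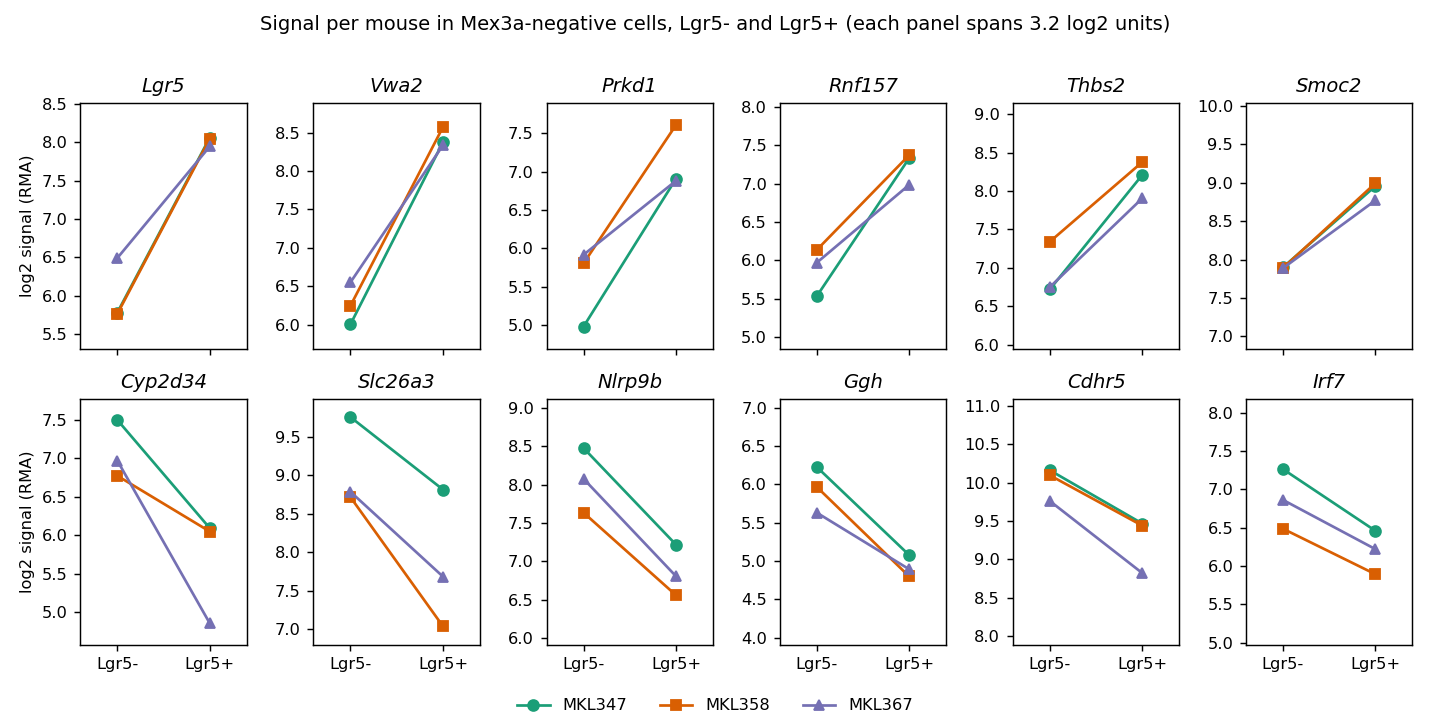
Log2 signal (y axis, each panel spanning 3.2 units) of 12 genes in the Lgr5- and Lgr5+ pool (x axis) of each mouse, joined by a line per mouse. Every line rises for the 6 genes of the upper row and falls for the 6 of the lower row, and Lgr5 has its smallest step in MKL367.

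Genes of crypt base stem cells and of the Wnt pathway leaned upward, with few calls. Of 26 tested members of the stem cell list, 4 were called higher (15.4%, against 0.81% of all genes) and 0 lower, and the median difference was 0.20 against -0.0052 over all genes. Smoc2, a secreted calcium-binding protein typical of these stem cells, measured 8.96, 8.995 and 8.77 on the Lgr5+ arrays of mice MKL347, MKL358 and MKL367 and 7.90, 7.89 and 7.89 on their Lgr5- arrays. Its 3 Lgr5- arrays lay close together (SD 0.0056), all below the Lgr5+ arrays (log2 difference 1.02, SE 0.11, limma adjusted p = 0.0019), and a second probe set gave 1.21.

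The other 3 called members were smaller. Cdk6, a kinase that drives entry into the cell cycle, measured 8.12, 8.13 and 8.01 on the Lgr5+ arrays and 7.71, 7.22 and 7.42 on the Lgr5- arrays, with no overlap (log2 difference 0.64, SE 0.13, limma adjusted p = 0.0315). Scn2b, a sodium channel subunit, rose by 0.45 (SE 0.09, limma adjusted p = 0.0315) and its groups overlapped. Axin2, the scaffold that returns Wnt signalling to rest and a standard readout of it, measured 9.05, 9.18 and 9.38 on the Lgr5+ arrays and 8.78, 8.79 and 9.15 on the Lgr5- arrays. It was higher in every mouse by a small step, with overlap between mice (log2 difference 0.30, SE 0.06, limma adjusted p = 0.0438). The calls of Axin2, Cdk6 and Scn2b all ended without the Lgr5+ array of MKL358 (limma adjusted p between 0.166 and 0.19), and each other array ended 1 to 3 of them. Leaving out a mouse ended 2 or 3 (up to 0.269).

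Rnf43, a ligase that removes Wnt receptors from the surface, measured 7.85, 7.87 and 7.99 on the Lgr5+ arrays and 7.43, 6.95 and 7.76 on the Lgr5- arrays and missed the threshold (log2 difference 0.52, SE 0.12, limma adjusted p = 0.0537). Other stem cell genes that did not pass were Lrig1 (0.46, SE 0.12), Ascl2 (0.25, SE 0.10), Sox9 (0.04, SE 0.07), Lgr4 (-0.24, SE 0.10), Prom1 (-0.13, SE 0.10) and Cd44 (-0.09, SE 0.14).

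Of 32 tested Wnt targets and feedback regulators, 2 were called higher (6.25%), Prox1 and Axin2, and 0 lower, with a median of 0.14. By mouse the median was 0.10, 0.18 and 0.03 in MKL347, MKL358 and MKL367. Prox1, a transcription factor that Wnt signalling switches on in colon adenomas, measured 9.41, 9.06 and 9.74 on the Lgr5+ arrays and 8.53, 8.12 and 9.25 on the Lgr5- arrays. It was higher in each mouse by 0.49 to 0.94, while the Lgr5- array of MKL367 lay above the Lgr5+ array of MKL358 (log2 difference 0.77, SE 0.12, limma adjusted p = 0.00832). The call of Prox1 ended without the Lgr5+ array of MKL358 (limma adjusted p = 0.0597) and without mouse MKL347 or MKL358 (0.0923 and 0.100). The Wnt inhibitor Notum (0.38, SE 0.13) and the receptor antagonist Dkk2 (-0.39, SE 0.11) did not pass.

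The promoters of the changed genes were searched for the word that TCF/LEF factors, the DNA-binding partners of Wnt signalling, recognise. The word was CTTTG followed by A or T and again by A or T, on either strand in the 250 bases before the gene's start (RefSeq, GRCm38.p6). Of 87 risen genes with an entry, 6 held such a word (6.9%), as did 11 of 77 fallen genes (14.3%) and 1316 of 10123 tested genes (13%). In the stem cell list it was 5 of 19 (26.3%), Scn2b among them, and in the Wnt list 6 of 21 (28.6%). The colonocyte and interferon lists, described below, had 8 of 28 (28.6%) and 5 of 18 (27.8%). Lgr5 and Smoc2 have no entry. The window of Scn2b, on the plus strand at chr9:45117626-45117875, is shown with the word in capitals, read from the opposite strand 247 bases before the start, beside that of Vwa2 at chr19:56874166-56874415 on the plus strand, the gene with the largest rise, which holds none.
Scn2b: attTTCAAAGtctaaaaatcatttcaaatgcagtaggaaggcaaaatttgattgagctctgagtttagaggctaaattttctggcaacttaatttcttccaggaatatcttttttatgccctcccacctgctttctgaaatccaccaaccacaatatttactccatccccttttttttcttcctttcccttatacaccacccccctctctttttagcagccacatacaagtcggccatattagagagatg
Vwa2: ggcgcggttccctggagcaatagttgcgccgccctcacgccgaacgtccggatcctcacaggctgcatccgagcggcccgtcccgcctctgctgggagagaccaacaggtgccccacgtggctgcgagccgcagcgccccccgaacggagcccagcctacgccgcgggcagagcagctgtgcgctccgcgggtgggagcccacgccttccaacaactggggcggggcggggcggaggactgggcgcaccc
The windows differ in base composition, with 38.4% G and C for Scn2b and 73.6% for Vwa2 against a median of 59.2% over all windows. A matching word is a match of letters and was not tested for binding.

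Of 20 tested genes of the Notch pathway, through which neighbouring cells settle between the absorptive and the secretory fate, 2 were called higher (10%) and 0 lower, with a median of 0.06. Dtx4, a Deltex ubiquitin ligase that acts on Notch receptors, measured 8.23, 8.50 and 8.12 on the Lgr5+ arrays and 7.56, 7.81 and 7.52 on the Lgr5- arrays, with no overlap (log2 difference 0.65, SE 0.08, limma adjusted p = 0.00232), and held its call without any one array or mouse. Notch1, a receptor, had a log2 difference of 0.47 (SE 0.10, limma adjusted p = 0.0444). The Notch1 call ended without any one array other than the Lgr5- array of MKL367 (up to 0.221) and without any one mouse (up to 0.253), and its other probe set gave 0.092 and did not pass. The ligand gene Dll4 (0.58, SE 0.15) and the feedback regulator Nrarp (0.31, SE 0.09) did not pass.

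**Figure D3:**
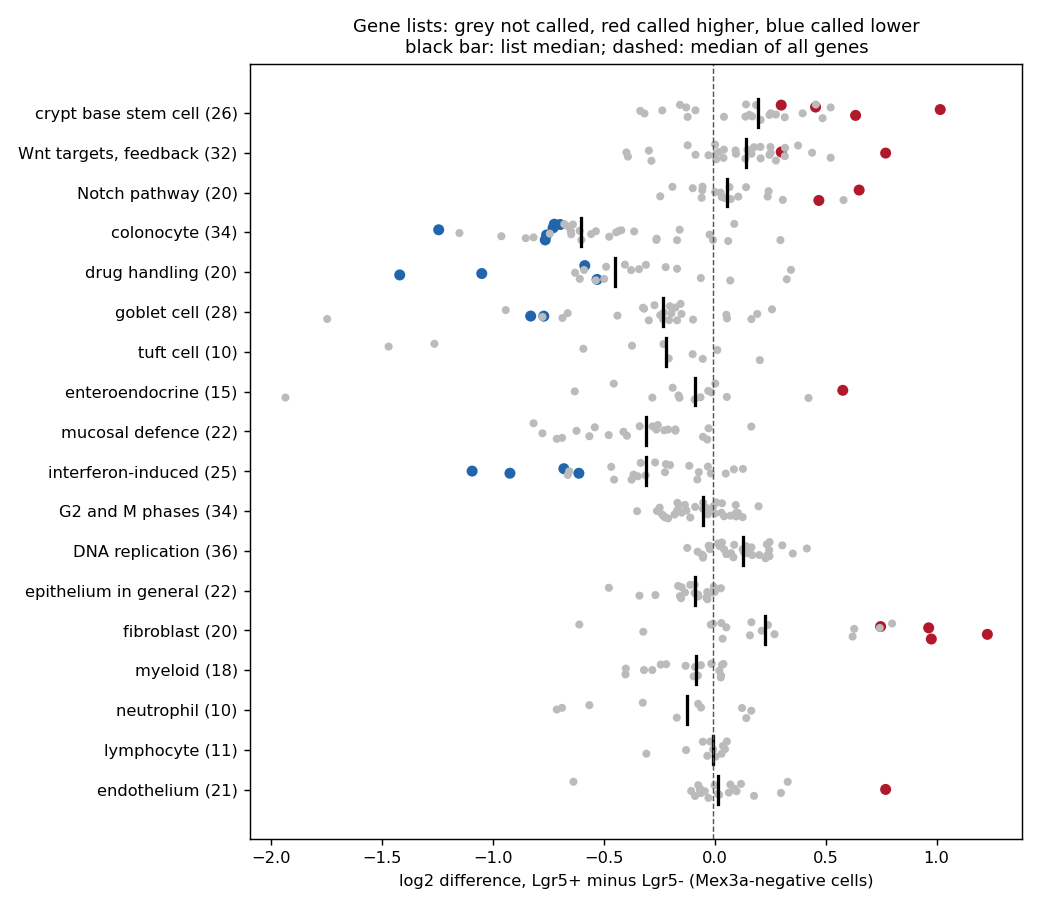
Log2 difference by Lgr5 status in Mex3a-negative cells (x axis) for every tested member of 18 gene lists (rows, with the number tested), where red and blue points were called higher and lower, grey points were not called, and a black bar marks the list's median. The colonocyte and drug handling lists have medians of -0.60 and -0.45, the stem cell list 0.20, and the dashed line marks the median of all genes at -0.0052.

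Genes of absorptive colonocytes leaned lower in Lgr5+ cells. Of 34 tested members, 6 were called lower (17.6%, against 0.81% of all genes) and 0 higher, 31 of 34 had a difference below 0, and the median was -0.60. The median was -0.47, -0.47 and -0.66 in mice MKL347, MKL358 and MKL367. Since the pools are bulk samples, fewer cells of a type and less RNA per cell cannot be told apart, here and in every list below.

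Slc26a3, the exchanger that takes up chloride in return for bicarbonate, measured 8.82, 7.04 and 7.68 on the Lgr5+ arrays of mice MKL347, MKL358 and MKL367 and 9.76, 8.72 and 8.79 on their Lgr5- arrays. It fell in each mouse, while the Lgr5+ array of MKL347 lay above the Lgr5- arrays of the other mice (log2 difference -1.24, SE 0.21, limma adjusted p = 0.0157). Cdhr5, a cadherin that links the microvilli of the brush border, measured 9.47, 9.44 and 8.82 on the Lgr5+ arrays and 10.16, 10.10 and 9.76 on the Lgr5- arrays, with no overlap (log2 difference -0.76, SE 0.09, limma adjusted p = 0.00232). Slc9a3, the sodium and proton exchanger of the surface membrane, measured 6.64, 5.58 and 6.69 on the Lgr5+ arrays and 7.07, 6.28 and 7.72 on the Lgr5- arrays, with overlap between mice (log2 difference -0.72, SE 0.11, limma adjusted p = 0.0104).

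The remaining called members were the carbonic anhydrase Car2 (-0.70, SE 0.12), the adhesion molecule Ceacam20 (-0.76, SE 0.16) and Slc51b, a subunit of the bile acid exporter (-0.73, SE 0.16). Cdhr5 kept its call without any one array or mouse. Without the Lgr5+ array of MKL358 the other 5 calls ended (limma adjusted p between 0.0592 and 0.185), and each other array ended 1 to 4 of the 6. Without mouse MKL347, MKL358 or MKL367, 3, 5 and 4 ended (up to 0.197). Car1, another carbonic anhydrase, was lower on every Lgr5+ array without passing (log2 difference -0.66, SE 0.22, limma adjusted p = 0.182).

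Genes that process drugs and dietary compounds leaned lower as well. Of 20 tested, 4 were called lower (20%) and 0 higher, with a median of -0.45 and 17 of 20 differences below 0. The largest fall of all called genes belonged to Cyp2d34, a cytochrome P450, which measured 6.09, 6.05 and 4.85 on the Lgr5+ arrays and 7.50, 6.77 and 6.97 on the Lgr5- arrays. The Lgr5+ array of MKL367 was its lowest by more than 1 log2 unit, and the groups did not overlap (log2 difference -1.42, SE 0.22, limma adjusted p = 0.01). Sult1b1, a sulfotransferase, measured 7.55, 7.03 and 6.56 on the Lgr5+ arrays and 8.24, 8.26 and 7.79 on the Lgr5- arrays, with no overlap (log2 difference -1.05, SE 0.19, limma adjusted p = 0.0179). The efflux pump gene Abcg2 (-0.59, SE 0.10) and the carboxylesterase gene Ces2a (-0.53, SE 0.10) were the other called members. The call of Cyp2d34 held without any one array and ended without mouse MKL347 (limma adjusted p = 0.0825), while each array ended 1 to 3 of the other calls (between 0.0516 and 0.129), and each mouse 2 or 3 of the 4 (up to 0.198).

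Further genes were among the 15 largest falls. Slc13a2, a transporter of citrate and other dicarboxylates, fell by 1.01 (SE 0.22). Mep1b, a brush border protease, fell by 0.90 (SE 0.19). Both lost their calls without 5 of the 6 arrays (up to 0.196). Selenop, the carrier of selenium in plasma, measured 5.10, 4.59 and 4.19 on the Lgr5+ arrays and 6.40, 5.65 and 5.22 on the Lgr5- arrays, with no overlap (log2 difference -1.13, SE 0.18, limma adjusted p = 0.0108).

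Ggh, which trims folates, measured 5.08, 4.80 and 4.89 on the Lgr5+ arrays and 6.23, 5.97 and 5.63 on the Lgr5- arrays. Its 3 Lgr5+ arrays all lay below the Lgr5- arrays (log2 difference -1.02, SE 0.10, limma adjusted p = 0.000739), and its call held without any one array or mouse. Nlrp9b, an inflammasome sensor of intestinal epithelium, measured 7.22, 6.56 and 6.80 on the Lgr5+ arrays and 8.47, 7.63 and 8.07 on the Lgr5- arrays, with no overlap (log2 difference -1.20, SE 0.18, limma adjusted p = 0.0077), and its call ended without the Lgr5+ array of MKL358 or without mouse MKL347 (limma adjusted p = 0.0611 and 0.0604). Sycn, a protein of secretory granules, measured 6.68, 6.95 and 6.52 on the Lgr5+ arrays and 7.42, 7.95 and 7.68 on the Lgr5- arrays, with no overlap (log2 difference -0.96, SE 0.13, limma adjusted p = 0.00409). Another probe set of Sycn gave -1.21.

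The rest of the 15 were Itih5 (a hyaluronan-binding protein, -1.34, SE 0.27), Prss30 (a serine protease, -1.13, SE 0.20), Fhl1 (a LIM domain protein, -1.01, SE 0.14), Fam3b (a secreted cytokine-like protein, -0.98, SE 0.21) and the interferon-induced Trim30d and Oasl2. For Fhl1 all 3 Lgr5+ arrays were below the filter's level of 4.40. The Mex3a+ arrays were below it too, so Fhl1 entered the test only through the Mex3a- Lgr5- arrays, where it was high. Without the Lgr5+ array of MKL358, or of MKL367, 10 of the 15 calls ended (limma adjusted p up to 0.231 and 0.162). Without the other arrays 3 to 8 ended, and the calls of Cyp2d34, Ggh, Fhl1 and Sycn held without any one array. Without mouse MKL347, MKL358 or MKL367, 6, 12 and 9 of the 15 ended (up to 0.267), with Cyp2d34 lost without the first, Sycn without the second and Fhl1 without either of the last 2.

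Goblet cell genes had 2 of 28 tested members called lower (7.14%) and 0 higher, with a median of -0.23 and 23 of 28 differences below 0. Capn9, a calpain protease of mucus-making cells, measured 6.05, 5.94 and 6.19 on the Lgr5+ arrays and 6.65, 6.70 and 7.13 on the Lgr5- arrays, with no overlap (log2 difference -0.77, SE 0.11, limma adjusted p = 0.00611), and lost its call without mouse MKL358 or MKL367 (up to 0.065). Kcnk6, a potassium channel, fell by 0.83 (SE 0.15, limma adjusted p = 0.0171) and lost its call without the Lgr5+ array of MKL358 or either array of MKL347 (up to 0.103), and without mouse MKL347 or MKL358 (up to 0.174). Clca1, a major goblet cell secretion product, measured 7.73, 4.47 and 6.96 on the Lgr5+ arrays and 6.92, 8.01 and 9.47 on the Lgr5- arrays. It was not lower in every mouse, since MKL347 went the other way, and it did not pass (log2 difference -1.75, SE 0.64, limma adjusted p = 0.224). Fcgbp, a mucus protein (-0.94, SE 0.39), did not pass either.

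Genes of tuft cells, the chemosensory cells of the epithelium, had 0 of 10 members called, with a median of -0.22. Dclk1, their best known kinase, measured 4.87, 4.35 and 4.09 on the Lgr5+ arrays and 7.22, 4.68 and 5.82 on the Lgr5- arrays, so the Lgr5- array of MKL347 was far above the rest (log2 difference -1.47, SE 0.38, limma adjusted p = 0.0754). Sh2d6, an adaptor protein, measured 6.20, 5.50 and 5.71 on the Lgr5+ arrays and 7.80, 6.45 and 6.95 on the Lgr5- arrays and did not overlap (log2 difference -1.26, SE 0.29, limma adjusted p = 0.0548). The mean tuft cell level was lower in the Lgr5+ pool of each mouse, by 0.44, 0.14 and 0.27.

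For enteroendocrine cells, which make gut hormones, 1 of 15 members was called, against the direction of most of the list. Of the 15 differences 11 lay below 0, with a median of -0.09. The median was -0.06, -0.32 and 0.09 in mice MKL347, MKL358 and MKL367. Isl1, a transcription factor of these cells, was higher (log2 difference 0.58, SE 0.11, limma adjusted p = 0.022), and its call ended without the Lgr5- array of MKL358, either array of MKL347 or the Lgr5+ array of MKL367 (up to 0.0937), and without any one mouse (up to 0.176). Chgb, a protein of hormone granules, measured 5.34, 4.89 and 5.33 on the Lgr5+ arrays and 8.27, 7.98 and 5.11 on the Lgr5- arrays. The Lgr5- arrays of MKL347 and MKL358 were high and that of MKL367 was not, and it did not pass (log2 difference -1.93, SE 0.51, limma adjusted p = 0.082).

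Among markers of deep secretory cells 1 of 14 was called, Itln1, an intestinal lectin that binds microbial sugars (log2 difference -0.71, SE 0.16, limma adjusted p = 0.0458), which lost its call without any one array other than the Lgr5- array of MKL347 (up to 0.218), and without mouse MKL358 or MKL367 (up to 0.279). Of 22 mucosal defence genes 0 were called, though 21 differences lay below 0 and the median was -0.31. By mouse the median was -0.08, -0.43 and -0.33 in MKL347, MKL358 and MKL367.

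Interferon-induced genes, which cells switch on against viruses, leaned lower in Lgr5+ cells: 4 of 25 tested were called lower (16%) and 0 higher, 22 of 25 differences lay below 0, and the median was -0.31. It was -0.41, -0.26 and -0.29 in mice MKL347, MKL358 and MKL367. Irf7, the transcription factor that drives the interferon response, measured 6.46, 5.89 and 6.22 on the Lgr5+ arrays of mice MKL347, MKL358 and MKL367 and 7.26, 6.49 and 6.86 on their Lgr5- arrays, with no overlap (log2 difference -0.68, SE 0.13, limma adjusted p = 0.0222). Oasl2, an antiviral protein related to the oligoadenylate synthetases, measured 6.36, 5.17 and 6.25 on the Lgr5+ arrays and 7.70, 6.05 and 6.80 on the Lgr5- arrays, with overlap between mice (log2 difference -0.92, SE 0.20, limma adjusted p = 0.041). Zbp1, a sensor of unusual nucleic acids, fell by 0.61 (SE 0.13, limma adjusted p = 0.04), and its other probe set gave -0.04, which did not pass.

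Trim30d, a ubiquitin ligase of a family that interferon induces, measured 5.93, 3.83 and 5.01 on the Lgr5+ arrays and 6.87, 5.28 and 5.89 on the Lgr5- arrays. MKL358 was the lowest mouse in both pools and the groups overlapped (log2 difference -1.09, SE 0.24, limma adjusted p = 0.0452). All 4 interferon calls ended without the Lgr5- array of MKL347 (limma adjusted p between 0.101 and 0.174) and without the Lgr5+ array of MKL367 (0.0551 to 0.144), and 1 to 3 ended without each other array. Without mouse MKL347, MKL358 or MKL367, 3, 4 and 4 ended (up to 0.25). In the same list Xaf1 (-0.37, SE 0.09), Usp18 (-0.66, SE 0.19) and Iigp1 (-0.66, SE 0.18) did not pass.

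The interferon-stimulated response element, searched as GAAANNGAAA on either strand, was found in the 250 bases before the start of 9 of 18 listed interferon genes with an entry (50%), against 297 of 10123 tested genes (2.93%). It was in 5 of 77 fallen genes (6.49%), Trim30d among them, and in 0 of 87 risen genes. The window of Trim30d, on the minus strand at chr7:104507850-104508099, is shown because it is the called gene of the interferon list with the element, in capitals 41 bases before the start and read here from the opposite strand. Below it stands that of Cdhr5, on the minus strand at chr7:141276787-141277036, a colonocyte gene that fell and holds neither word.
Trim30d: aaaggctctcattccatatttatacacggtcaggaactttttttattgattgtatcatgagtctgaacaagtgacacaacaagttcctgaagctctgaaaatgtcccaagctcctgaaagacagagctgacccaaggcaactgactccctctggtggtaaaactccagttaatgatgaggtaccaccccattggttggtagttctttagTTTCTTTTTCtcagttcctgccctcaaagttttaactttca
Cdhr5: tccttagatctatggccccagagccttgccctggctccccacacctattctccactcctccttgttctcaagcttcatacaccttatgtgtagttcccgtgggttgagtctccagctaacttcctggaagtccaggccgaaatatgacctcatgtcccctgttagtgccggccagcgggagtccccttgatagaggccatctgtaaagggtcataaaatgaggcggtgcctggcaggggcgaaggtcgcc
Only the letters were matched, and whether any factor was bound there was not measured.

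Proliferation genes were not called in either direction. Of 34 genes of G2 and M phase 0 passed, with a median of -0.05, and of 36 genes of DNA replication 0 passed, with a median of 0.13 and 28 differences above 0. The DNA replication median was 0.0016, 0.27 and 0.07 in mice MKL347, MKL358 and MKL367, largest in the mouse with the small pools. Mcm2, a subunit of the replicative helicase, measured 8.33, 8.09 and 8.22 on the Lgr5+ arrays and 8.11, 7.37 and 8.10 on the Lgr5- arrays, with overlap (log2 difference 0.35, SE 0.14, limma adjusted p = 0.284). Birc5, a protein of dividing cells, did not overlap between groups and did not pass (log2 difference -0.25, SE 0.07, limma adjusted p = 0.0989). No member was called either among the tested genes for ribosome biogenesis (33), ribosomal proteins (31), respiratory chain (34), BMP and TGF-beta signalling (27), Eph receptors (14), antigen presentation by MHC class II (15), immediate early genes (27), the unfolded protein response (29), cholesterol synthesis (19), glycolysis (16), gasdermins (4) and general epithelium (22). Some of these lists leaned lower, with medians between -0.16 and -0.06. Differences below 0 were 30 of 34 for the respiratory chain, 14 of 15 for MHC class II and 17 of 19 for cholesterol synthesis. They were 14 of 16 for glycolysis, 23 of 29 for the unfolded protein response and 20 of 22 for epithelium. For these last lists the median was below 0 in every mouse. The MHC class II median was -0.45, -0.04 and -0.04 in mice MKL347, MKL358 and MKL367, so mostly that of MKL347. In the same order it was -0.16, 0.02 and -0.11 for cholesterol synthesis and -0.06, -0.02 and -0.10 for the respiratory chain. For ribosome biogenesis 24 of 33 lay above 0, with a median of 0.04, and of -0.06, 0.15 and 0.03 in mice MKL347, MKL358 and MKL367. A gasdermin C family gene outside the gasdermin list, Gsdmcl2, named after its values were seen, did fall (log2 difference -0.57, SE 0.12, limma adjusted p = 0.0444), and lost its call without 4 of the 6 arrays (up to 0.221). Its other probe set gave -0.07 and did not pass. Of 21 genes of fetal or injured epithelium 1 was called, Muc1, and of 27 genes of matrix and adhesion 2, Vwa2 and Scara3, all higher. Scara3 passed the filter only through Lgr5+ arrays, as said above. These 2 lists did not lean upward as a whole. In the first, 15 of 21 differences lay below 0 (median -0.09), and in the second 14 of 27 (median -0.01). Of 18 genes of fat handling, 1 fell, Cpt2, a mitochondrial enzyme of fatty acid breakdown (log2 difference -0.52, SE 0.11, limma adjusted p = 0.0316), which lost its call without any one array other than the Lgr5+ array of MKL347 (up to 0.142) and without any one mouse (up to 0.208).

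Some of the largest rises are also markers of connective tissue. Of 20 tested genes of the fibroblast and smooth muscle list, 4 were called higher (20%), Thbs2, Prelp, Sfrp2 and Vim, and 0 lower, and the median was 0.23. Prelp measured 8.82, 8.18 and 8.59 on the Lgr5+ arrays of mice MKL347, MKL358 and MKL367 and 8.04, 7.14 and 7.48 on their Lgr5- arrays, with no overlap (log2 difference 0.98, SE 0.11, limma adjusted p = 0.00213). Sfrp2, a secreted protein that binds Wnts, measured 5.32, 6.31 and 6.41 on the Lgr5+ arrays and 4.75, 5.26 and 5.14 on the Lgr5- arrays, with no overlap (log2 difference 0.96, SE 0.14, limma adjusted p = 0.00713). Vim, the intermediate filament vimentin, measured 9.47, 8.20 and 9.41 on the Lgr5+ arrays and 8.32, 7.56 and 8.94 on the Lgr5- arrays, with overlap between mice (log2 difference 0.75, SE 0.14, limma adjusted p = 0.0268), and was at 9.84 to 11.33 on the 6 Mex3a+ arrays.

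The collagens of the same list behaved differently. Col3a1 measured 4.95, 4.81 and 9.34 on the Lgr5+ arrays and 6.86, 5.10 and 5.25 on the Lgr5- arrays, so the Lgr5+ array of MKL367 stood alone, and it did not pass (log2 difference 0.63, SE 0.89, limma adjusted p = 0.826). Dcn, the matrix proteoglycan decorin, measured 4.60, 4.80 and 7.25 on the Lgr5+ arrays and 4.78, 4.88 and 4.76 on the Lgr5- arrays, again with that array alone high (log2 difference 0.74, SE 0.43, limma adjusted p = 0.493). The mean level of the 30 list members with a probe set, relative to each gene's mean over 12 arrays, was 0.63 on that array, -0.17 and -0.11 on the other Lgr5+ arrays and -0.21 to -0.087 on the Lgr5- arrays, and 8 of the 30 were below 4.40 on all 6 arrays.

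Without the Lgr5+ array of MKL367 the list's median was -0.02 in place of 0.23, and with a stricter filter at the 60th percentile it was 0.63. Without that array Thbs2, Prelp and Sfrp2 stayed called, and Vim did not pass (limma adjusted p = 0.102). Over all fits without 1 array or 1 mouse, the differences of Thbs2, Prelp and Sfrp2 lay between 1.10 and 1.33, 0.89 and 1.11, and 0.81 and 1.16. Sfrp2 lost its call without the Lgr5+ array of MKL358 (0.0592) and without the whole of mouse MKL358 or MKL367 (up to 0.0755). Vim lost it without any one array but the Lgr5- array of MKL367, and without mouse MKL347 or MKL358 (up to 0.227).

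Other cell types showed few differences. Of tested markers of myeloid cells (18), neutrophils (10), lymphocytes (11) and mast or red cells (3), 0 were called. The endothelial list had 1 of 21 called, Prox1, which was named above as a Wnt target and is also a factor of lymphatic vessels, and the glia and mesothelium list 1 of 6, the receptor tyrosine kinase Ret (log2 difference -0.43, SE 0.08, limma adjusted p = 0.0285), which lost its call without any one array other than the Lgr5- array of MKL367 (up to 0.127) and without any one mouse (up to 0.221). Ret was the only tested member of the glia and mesothelium list that was lower, since 5 of the 6 differences lay above 0 (median 0.07). Neutrophil markers were high in both pools of MKL358, at mean relative levels of 0.51 in Lgr5+ and 0.88 in Lgr5- cells, and between -0.34 and -0.074 on the other 4 arrays. S100a9, a calcium-binding protein abundant in neutrophils and also made by stressed epithelium, measured 6.38, 8.76 and 6.87 on the Lgr5+ arrays and 7.09, 9.59 and 7.02 on the Lgr5- arrays and was not called (log2 difference -0.56, SE 0.26, limma adjusted p = 0.349). Their part in the results was not tested.

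**Figure D4:**
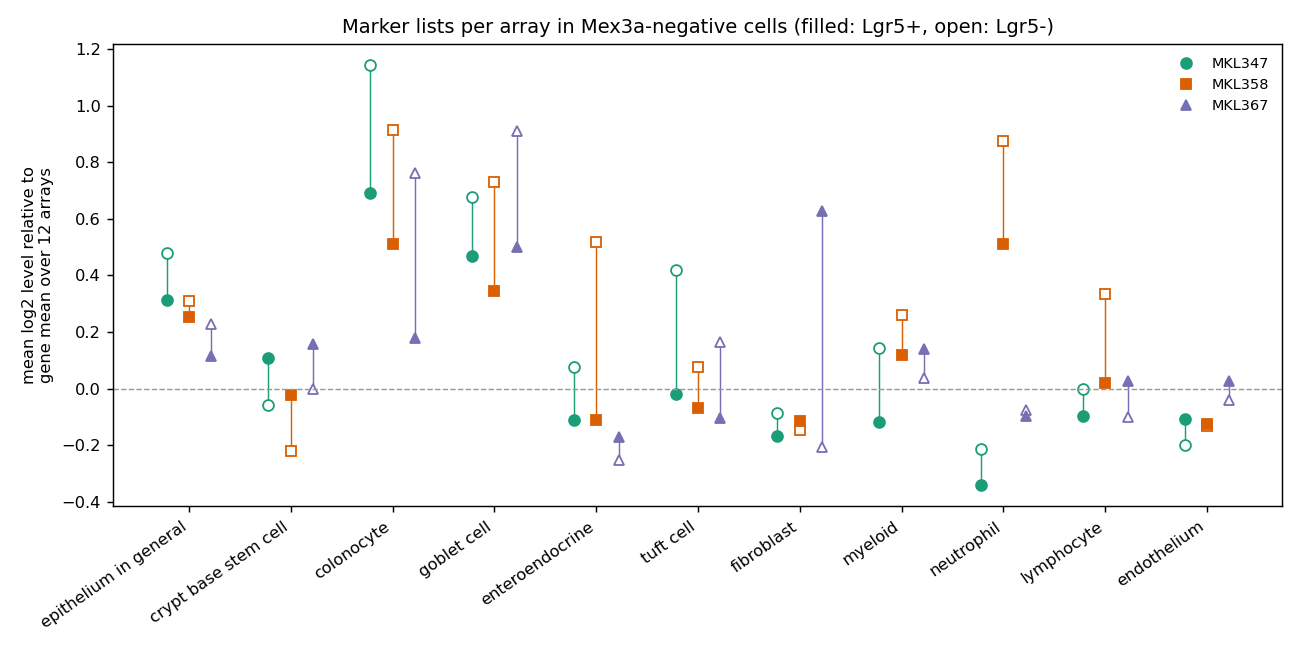
Mean log2 level of each marker list relative to the gene means over 12 arrays (y axis) for 11 cell type lists (x axis) in the Lgr5+ (filled) and Lgr5- (open) pools of the 3 mice, joined per mouse. The colonocyte level is lower in the Lgr5+ pool of every mouse, by 0.45, 0.40 and 0.58 in MKL347, MKL358 and MKL367, and the fibroblast level of 0.63 in the Lgr5+ pool of MKL367 stands alone.

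In Mex3a+ cells of the same mice, the same fit called 9 genes by Lgr5 status (0.0715%), 7 higher and 2 lower, with 1093 genes at an unadjusted p under 0.05. The mouse block carried these calls too, since 0 were called without it, and 0, 1 and 4 were called without mouse MKL347, MKL358 or MKL367. Leaving out the Mex3a- Lgr5+ array of MKL347 or of MKL367, which enter through the shared fit, left 2 and 3. Leaving out any one of the 6 Mex3a+ arrays, tried after the data were seen, left 0 to 2: none without the Lgr5+ or Lgr5- array of MKL347 or the Lgr5- array of MKL367, 1 without the Lgr5+ array of MKL367 and 2 without either array of MKL358. Of these, 6 were also called in Mex3a- cells, all higher: Vwa2, Lgr5, Thbs2, Scara3, Sidt1 and Col9a3. Among them Scara3 had passed the filter only through Lgr5+ arrays. Vwa2 was higher by 0.99, SE 0.14 in Mex3a+ cells and Thbs2 by 0.81, SE 0.11. Sidt1, a membrane protein that takes part in RNA transport, was higher by 0.46, SE 0.07 in Mex3a+ and by 0.40, SE 0.07 in Mex3a- cells, and Col9a3, a collagen chain, by 0.66, SE 0.10 and 0.74, SE 0.10. The remaining 3 were Pla2g2f (a secreted phospholipase, 0.56, SE 0.08), Car1 (-1.97, SE 0.22) and Steap1 (a metal reductase, -0.67, SE 0.10). In Mex3a- cells these 3 were at 0.21, SE 0.08, -0.66, SE 0.22 and -0.17, SE 0.10, and none passed.

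Of the 102 rises in Mex3a- cells, 98 had a difference above 0 in Mex3a+ cells as well (96.1%, against 58.5% of all genes), with medians of 0.60 and 0.24. Of the 102 falls, 80 had a difference below 0 there (78.4%, against 41.5% of all genes), with medians of -0.62 and -0.095. The 2 comparisons use different arrays of the same mice and share the estimate of spread. Since the genes were chosen in Mex3a- cells, their larger differences there are a description. Car1 was the clearest case in the other direction: it measured 5.41, 6.20 and 5.56 on the Mex3a+ Lgr5+ arrays of MKL347, MKL358 and MKL367 and 8.23, 7.26 and 7.58 on the Mex3a+ Lgr5- arrays, and 9.77, 9.72 and 9.30 against 10.30, 10.21 and 10.26 in Mex3a- cells.

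A test of the difference between the Lgr5 effects of both Mex3a states called 0 of 12595 genes (0%), while 1078 had an unadjusted limma p under 0.05. Without the mouse block it also called 0. Without the Lgr5- array of MKL347, the Lgr5+ array of MKL367 or the Lgr5- array of MKL367 it called 2, 2 and 3, and without mouse MKL367 1. Of the 6 Mex3a+ arrays, leaving out the Lgr5+ array of MKL347 gave 1 call and the others 0. The smallest adjusted p was that of Ggh, 0.088. Ggh measured 4.71, 4.57 and 4.25 on the Mex3a+ Lgr5+ arrays and 4.63, 4.35 and 4.35 on the Mex3a+ Lgr5- arrays, close to the filter's level in both. Rnf157 was at 1.35, SE 0.13 in Mex3a- and 0.18, SE 0.13 in Mex3a+ cells (adjusted p of the difference 0.102), and Vwa2 at 2.16, SE 0.14 and 0.99, SE 0.14 (0.131). None of these shows a Lgr5 effect that differs between the Mex3a states, nor that the effects are alike.

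**Figure D5:**
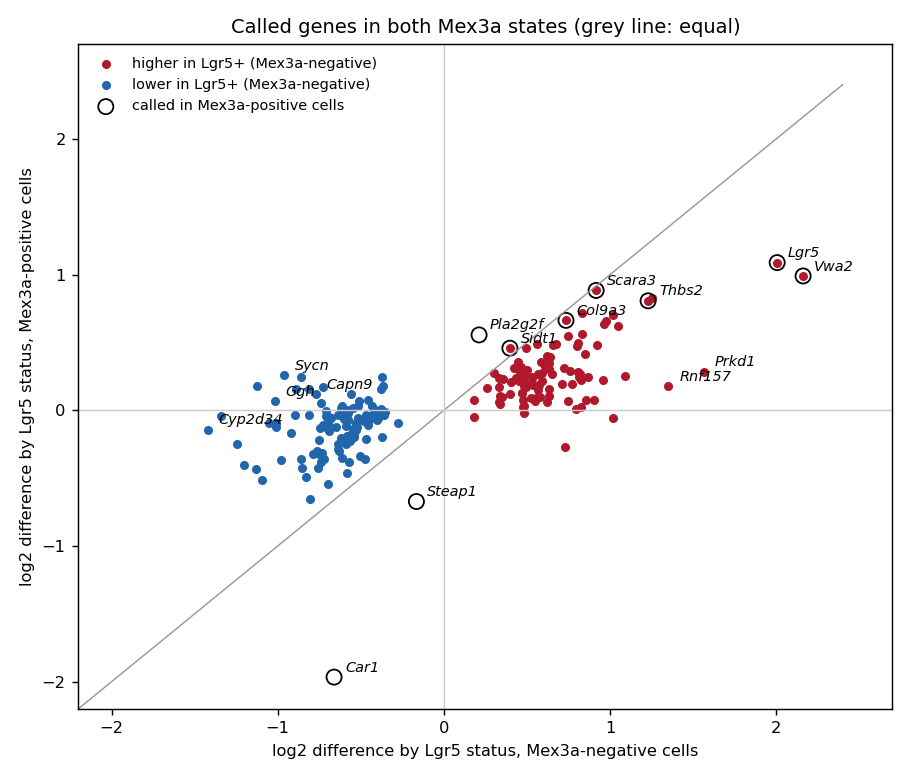
Log2 difference by Lgr5 status in Mex3a-negative cells (x axis) and in Mex3a-positive cells (y axis) for the 102 called rises (red) and 102 called falls (blue) of Mex3a-negative cells, with circles on the 9 genes called in Mex3a-positive cells and a grey line where both are equal. Vwa2 and Lgr5 lie at the upper right, 98 of the 102 rises lie above 0 on the y axis, and Car1 lies at the bottom with -1.97 in Mex3a-positive cells.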

How the data were processed

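The authors deposited log2 expression values per probe set for 12 arrays. These were made with RMA, as the submitters' processing notes say, with the program and settings not given in the sources used here. RMA fits the background and scales all arrays together, which compresses low signals. The 45141 probe sets were named by the platform annotation: 28898 had 1 gene symbol, 551 several, 15588 none, and 104 were controls. For each of 17097 symbols (7180 with over 1 probe set) the brightest one on average over the 12 arrays was used. Genes above 4.40, the 40th percentile of all values, on at least 3 arrays were kept (12595).

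All 12 arrays were fitted in limma 3.58.1 (R 4.3.3) with population and mouse as terms, a moderated variance with an intensity trend, and Benjamini-Hochberg adjustment over all genes, called under 0.05. The mouse enters because the titles give the same mouse numbers in all populations: deviations of same-mouse Mex3a- pools correlated at 0.521 to 0.612 (3 pairs), those of different mice at -0.423 to -0.053 (6 pairs). Deviations were taken from each population's mean over its 3 mice, so values above 0 within mice bring values below 0 between mice. The latter are no separate support. For MKL358, mouse and pool size cannot be told apart. Named were Lgr5, Mex3a, epithelial markers, the 15 largest rises and falls among called genes of the same sign in 3 mice, and, from each list, every called member and the 4 with the smallest p. Others, in the text on the closing observations and where a list is described, were chosen after their values were seen. The comparison and the 35 gene lists (922 genes, 703 tested) were chosen with earlier results of these data known. The number of arrays limits the precision. The alternatives were the mouse block, the arrays in the fit, the filter, normalization, the choice of probe set, the variance model and leaving out each mouse or, for single genes, each Mex3a- array (for counts, each of the 12). The fit was run on data simulated from this same model, which checks the calculation and not the calls made here. Promoters came from RefSeq (GRCm38.p6). Figures used Python 3.11.15 and matplotlib 3.10.9.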

Additional observations from a re-analysis of the deposited data

Results flagged for a closer look

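Probe sets without a single gene symbol entered no comparison above. Tested by the same limma fit on their own, 60 of 8482 were called by Lgr5 status in Mex3a- cells (0.707%), 45 higher and 15 lower in Lgr5+ pools, and 0 of the 60 carried several symbols. They stand out only as signal in data the comparison did not use.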

How the results depend on the processing

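The fit reported called 204 genes in Mex3a- cells. The count was 4 without the replicate block, 87 with the mouse as a random effect, 322 from the 6 Mex3a- arrays alone (112 higher and 210 lower, sharing 167 with the 204) and 130 from the mean of all probe sets (sharing 111). Without 1 mouse or 1 of the 12 arrays it ran from 37 to 240. The share of lower calls was 50% in the fit reported, 42.5% after further quantile normalization, 55% after median centring and 65.2% from the 6 arrays, and it ran from 28.4% without mouse MKL367 to 58.4% without the Lgr5- array of MKL358. The 9 calls in Mex3a+ cells became 0 without the replicate block, 3 after quantile normalization, 2 with mean probe sets and 0 without the intensity trend, and 0 to 10 without 1 mouse or 1 of the 12 arrays. The difference between the Mex3a states had 0 calls, and 0 to 3 when 1 mouse or array was left out. The 34 called list genes became 1 without the replicate block, 17 with the random effect and 73 from 6 arrays, and 10 to 41 under the same omissions. Leaving out the Mex3a+ arrays was chosen after seeing the data. The cause of these shifts was not tested. No result reversed its sign among called values, and the 204 called genes kept their sign wherever they were measured in the alternatives planned. In the fits that changed only the mouse block or left out a mouse, the signs of the 204 could not come out otherwise. Of the differences and medians of named genes and lists over all alternatives, 3741 stayed on the same side of the threshold, 614 no longer passed, 50 newly passed and 45 medians moved. Of 80 called genes checked for other probe sets, 32 had them, 50 probe sets in all. All 50 had the same sign as the one used, and 23 were called. No other probe set was called for Axin2, Bmp1, Cald1, Dnajc6, Fbln1, Gsdmcl2, Notch1, Prox1, Scn2b, Smo, Trim30d, Vim or Zbp1. Signals near the filter's level limit what the array can show for dim genes.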

Other observations

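The genes named here were picked from the 204 called ones after their values were seen, so they illustrate the list and carry no test of a theme. Besides the listed interferon genes, 7 called falls have known roles in antiviral or innate defence: Rtp4 (-0.71, SE 0.10), Batf2 (-0.58, SE 0.09), Ifi27l2b (-0.63, SE 0.12), Helz2 (-0.55, SE 0.12), Oas1g (-0.36, SE 0.07), the receptor for double-stranded RNA Tlr3 (-0.38, SE 0.07) and the inflammatory caspase Casp4 (-0.64, SE 0.13). Rtp4 measured 7.29, 6.40 and 7.29 on the Lgr5+ arrays of mice MKL347, MKL358 and MKL367 and 8.19, 7.01 and 7.90 on their Lgr5- arrays, lower in each mouse with overlap between mice, and kept its call without any one Mex3a- array but not without mouse MKL347 or MKL367 (limma adjusted p up to 0.0809). Batf2 lost it without the Lgr5+ array of MKL358 (limma adjusted p = 0.0592) and without any one mouse (up to 0.0866), and the other 5 lost it without 4 or more of the 6 arrays (up to 0.183). Genes with defence roles were also among the called rises, such as C1rb (0.83, SE 0.17), Tnfsf10 (0.73, SE 0.16) and Il1r1 (0.53, SE 0.11). A further 5 called falls encode enzymes that build or decorate sugar chains: B3gnt7 (-0.89, SE 0.12), Chst4 (-0.73, SE 0.13), B4galt4 (-0.69, SE 0.14), B4galnt2 (-0.63, SE 0.12) and St3gal4 (-0.46, SE 0.09). B3gnt7, which extends lactosamine chains, measured 6.88, 7.12 and 6.60 on the Lgr5+ arrays and 7.65, 8.01 and 7.60 on the Lgr5- arrays, with no overlap. Of these, B3gnt7 kept its call without any one array but not without mouse MKL367 (0.0577), and the others lost it without 3 to 5 of the arrays, the Lgr5+ array of MKL358 included (up to 0.132).

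Among the called rises, 7 further genes belong to the extracellular matrix or its processing: Ltbp4 (0.83, SE 0.18), Bmp1 (0.83, SE 0.18), Mmp11 (0.80, SE 0.15), Col9a3 (0.74, SE 0.10), Timp2 (0.64, SE 0.12), Col16a1 (0.62, SE 0.11) and Fbln1 (0.45, SE 0.07). Col9a3 kept its call without any one array or mouse, and the other 6 lost it without 3 to 5 arrays (up to 0.235). For all 6 these included the Lgr5+ arrays of MKL358 and MKL367 and the Lgr5- array of MKL347. The fibroblast level was high on the Lgr5+ array of MKL367 (0.63). It was -0.11 on the Lgr5+ array of MKL358 and -0.09 on the Lgr5- array of MKL347, and its part was not tested. Also higher were 3 receptors, those for fibroblast growth factors Fgfr2 (0.54, SE 0.08), for insulin-like growth factor Igf1r (0.49, SE 0.11) and the Hedgehog transducer Smo (0.48, SE 0.11). The cell cycle inhibitor Cdkn1a (-0.47, SE 0.08), the Myc antagonist Mxd1 (-0.58, SE 0.12) and the keratins Krt13 (-0.81, SE 0.16) and Krt6a (-0.86, SE 0.19) fell. All 7 of these lost their call without the Lgr5+ array of MKL358 (up to 0.235 over single arrays).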
